A study of Mus musculus with 14 samples.

Results

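The 43 genes described here mark or build the myeloid lineage, the branch of blood that gives monocytes, macrophages and granulocytes. A gene was followed if it was paired with a region in any of 6 lists of regions called by the authors as more or less accessible between groups. In those lists 10 of the 43 genes had a region, with 13 regions in all, out of 9954 regions and 6687 genes listed. The other 33 genes had none. The share of all genes with a region in any of the lists was not counted, and shares for each list are given below.

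Open chromatin was profiled by ATAC-seq, an assay that inserts sequencing adapters into accessible DNA with the Tn5 transposase. The cells were erythro-myeloid progenitors sorted from C57BL/6 mouse yolk sacs at E10.5, with 500 cells and 14 cycles of pre-amplification a library. All animals carried Ezh2 fl/fl alleles, Ezh2 being the methyltransferase of Polycomb repressive complex PRC2, which keeps many developmental genes silent. Tie2 KO samples (5) were Tie2-Cre Tg/+, with Cre expressed in endothelium and the blood that arises from it, and Vav KO samples (3) were Vav-Cre Tg/+, with Cre expressed in blood cells. Tie2 WT samples (3) were Tie2-Cre +/+, without the transgene. Another group, of 3 Vav WT samples (Vav-Cre +/+), is named in no list, so Vav KO was compared with a control of the other Cre line. The labels do not say whether a sample came from 1 embryo or several. For each region the lists hold the fold change on a log2 scale and its adjusted p but no value per sample, so depth per library, levels per sample and the spread between replicates are unknown. The lists cannot show whether the sort was pure, because a marker that did not differ is not in them, and Ezh2 itself had no listed region.

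Yolk sac erythro-myeloid progenitors give rise to red cells, megakaryocytes, mast cells, granulocytes and macrophages, the last including the precursors of microglia. Myeloid fate is set by PU.1, encoded by Spi1, together with C/EBP and interferon regulatory factors. These factors act on genes for colony-stimulating factor receptors, granule enzymes and the receptors and adaptors of phagocytes. The lists hold only regions that cover a gene start or end within 5 kb upstream of one, with an absolute log2 fold change of at least 0.58 and an adjusted p of at most 0.0479, so a gene without a region is not shown to be unchanged.

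Most of the regions at myeloid genes came from the direct comparison of the knockouts. They differ in Cre line and transgene as well as in the cells where Cre is expressed, and these cannot be told apart in it. In Tie2 KO against Vav KO, 6 genes lay near a more accessible region (Irf8, Irf5, Gfi1, Cx3cr1, Cd14 and Tyrobp) and 4 near a less accessible one (Csf1r, Mpo, Itgam and Laptm5). Against Tie2 WT, Tie2 KO had 1 gene near a lower region, Tyrobp, and 0 near a higher one. Vav KO against Tie2 WT had 1 gene near a higher region, Csf1r, and 1 near a lower one, Cd14. A gene is called higher or lower here after the region paired with it, and all coordinates are in mm10.

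These counts were read against the share of 21900 protein-coding RefSeq genes that lay near a listed region of the same kind. In Tie2 KO against Tie2 WT, 0 of 43 myeloid genes (0%) lay near a higher region, against 11.5% of all genes, and 1 (2.33%) near a lower one, against 2.51%. Near a region higher in Vav KO than in Tie2 WT lay 2.33% of myeloid genes, against 5.29% of all genes, and near a lower one 2.33%, against 2.59%. For Tie2 KO against Vav KO the share near a higher region was 14.0% of myeloid genes and 11.1% of all genes. The share near a lower region in that comparison was 9.3% of myeloid genes and 6.35% of all genes. The myeloid shares of the direct comparison were thus near the background, and what follows describes single genes. The counts by role below rest on 2 to 14 genes each. With no value per sample, no test over samples could be made, and the adjusted p of each region is the authors' own, from a test not given in the sources used here. In these bulk samples, fewer cells of a type and less open chromatin per cell cannot be told apart.

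**Figure D1:**
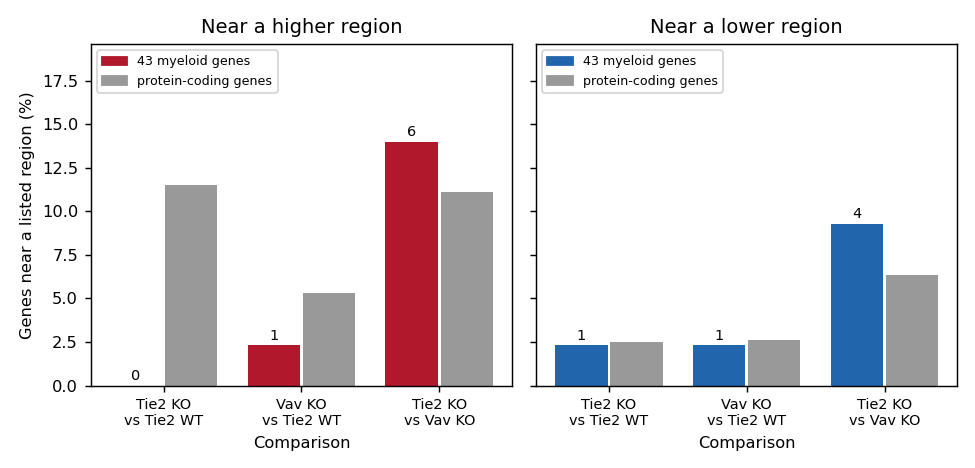
Share of the 43 myeloid genes (coloured bars, number of genes above each) and of all protein-coding genes (grey bars) near a region in each list, in percent, by comparison. The 6 genes higher and 4 lower in Tie2 KO against Vav KO make up 14.0% and 9.3% of the myeloid genes, against 11.1% and 6.35% of all genes.

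The regions were narrow and lay mostly upstream of the gene. Of the 13, 12 had the smallest width in the lists, 999 bp, and 10 ended upstream of the gene start, at distances of 157 to 4439 bp. Only the regions at Csf1r (in both of its comparisons) and Tyrobp (in Tie2 KO against Tie2 WT) covered the gene start. Of all 2873 regions more accessible in Tie2 KO than in Vav KO, 27.9% had the smallest width and 43.8% covered a gene start, while all 6 regions of myeloid genes there had that width and none covered the start. In the lower list of that comparison 39.9% had the smallest width and 12% covered a gene start, and of the 4 regions of myeloid genes all had that width and 1 covered the start. The lists against Tie2 WT that hold a myeloid region covered a gene start in 18.4% (lower in Tie2 KO), 16.8% (higher in Vav KO) and 16.3% (lower in Vav KO), so most regions in them did not cover one either. Each of the 13 regions was paired with a single gene. All 13 are listed with adjusted p-values between 2.75e-05 and 0.00133 in the authors' deposited table.

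**Figure D2:**
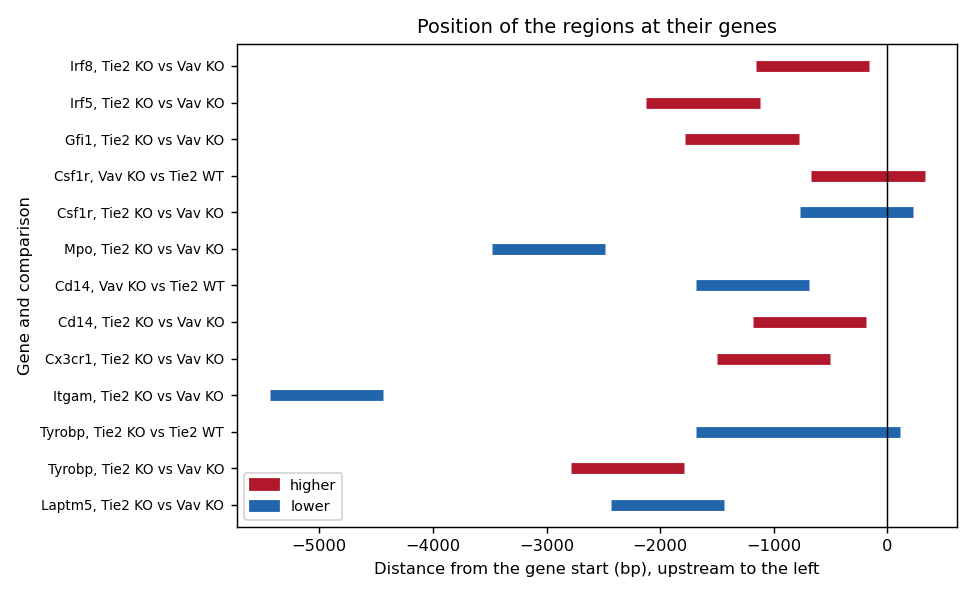
Position of each of the 13 regions relative to the start of its gene, in bp, with upstream to the left; bars span the region, red for higher and blue for lower in the group named first. 10 regions end upstream of the start, from 157 bp at Irf8 to 4439 bp at Itgam.

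Among the 8 transcription factor genes, 3 had a region, and all 3 regions were higher in Tie2 KO than in Vav KO, where 11.1% of all genes had one. Irf8, a factor needed for monocytes and dendritic cells, had a log2 fold change of 1.11 (adjusted p = 8.63e-05) in the authors' deposited table. Its region, chr8:120735202-120736200, ended 157 bp before the gene start. Irf5, an activator of inflammatory cytokine genes in macrophages, stood at 1.13 on the log2 scale (adjusted p = 0.000141) in the authors' deposited table, at chr6:29524502-29525500, 1124 bp upstream. Gfi1, a repressor needed to make neutrophils, had the highest value of the 3, 1.42 (adjusted p = 0.000355) in the authors' deposited table. The Gfi1 region at chr5:107726802-107727800 lay 779 bp upstream. The sizes were ordinary for the list: 45.5% of the regions more accessible in Tie2 KO than in Vav KO had a smaller fold change than Irf8, 47.4% than Irf5 and 69.4% than Gfi1. None of the 3 genes had a listed region when either knockout was compared with Tie2 WT.

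The Irf8 promoter is shown because the called region reaches into it. It is the RefSeq promoter window of assembly GRCm38.p6, the assembly that mm10 names, from 250 bases before to 50 bases after the start, on the plus strand of chr8:120736108-120736407. The capitals mark the 93 bases inside the region that was more accessible in Tie2 KO than in Vav KO.
Irf8: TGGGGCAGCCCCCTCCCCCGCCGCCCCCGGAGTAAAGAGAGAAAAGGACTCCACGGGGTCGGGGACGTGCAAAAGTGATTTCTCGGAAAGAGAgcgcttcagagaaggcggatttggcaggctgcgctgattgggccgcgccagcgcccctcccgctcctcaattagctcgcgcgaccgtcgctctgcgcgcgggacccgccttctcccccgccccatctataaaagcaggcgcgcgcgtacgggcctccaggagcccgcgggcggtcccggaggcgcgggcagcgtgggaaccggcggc
This window holds 38 CG pairs, of which 7 are in the capitals, against a median of 7 in all 32851 RefSeq promoter windows of the same 300 bases. The PU.1 core GAGGAA, read on both strands, was not among its letters.

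The genes that encode the core myeloid factors had no listed region in any comparison. These were Spi1 and the C/EBP genes Cebpa, Cebpb, Cebpd and Cebpe. At Cebpb, though, listed regions that the authors paired with the neighbouring genes A530013C23Rik and Tmem189 overlapped the far end of the gene, away from its start. They were lower in Tie2 KO, with a log2 fold change of -0.59 against Tie2 WT and -0.67 against Vav KO in the authors' deposited table. These regions, chr2:167689902-167690900 and chr2:167690002-167691000, shared 531 and 431 bases with Cebpb. They did not reach its promoter window, chr2:167688665-167688964. Their adjusted p-values were 0.000939 and 2.72e-05 in the authors' deposited table. Both comparisons use the same Tie2 KO samples.

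Of the 5 genes for receptors of colony-stimulating factors, Csf1r had regions and Csf3r, Csf2ra, Csf2rb and Csf2rb2 had none. Of all genes, 5.29% lay near a region higher in Vav KO than in Tie2 WT. Near a region lower in Tie2 KO than in Vav KO lay 6.35%. Csf1r, the receptor for M-CSF and IL-34 on which macrophages depend, was more accessible over its gene start in Vav KO than in Tie2 WT, with a log2 fold change of 0.92 (adjusted p = 0.00133) in the authors' deposited table. It was less accessible in Tie2 KO than in Vav KO, at -1.33 (adjusted p = 4.08e-05) in the authors' deposited table. The regions, chr18:61104902-61105900 and chr18:61104802-61105800, share 899 bases. No region over the Csf1r start was listed for Tie2 KO against Tie2 WT.

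Inside the Csf1r gene lay further regions that were paired with the microRNA gene Mir6983. In the authors' deposited table, one at chr18:61117402-61118800 was more accessible in Tie2 KO than in Tie2 WT, with a log2 fold change of 0.97 (adjusted p = 0.00908). The other, at chr18:61112902-61114000, was lower in Tie2 KO than in Vav KO, at -1.69 (adjusted p = 0.000557) in the authors' deposited table. Regions within Csf1r thus differed in direction between the comparisons, at different places in the gene.

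Of 9 genes grouped here as granule and secreted proteins, only Mpo had a region, a lower one in Tie2 KO against Vav KO. Of all genes, 6.35% lay near such a region. Mpo encodes myeloperoxidase, an enzyme of the first granules made by granulocyte and monocyte precursors. It was lower in Tie2 KO than in Vav KO, with a log2 fold change of -0.89 (adjusted p = 6.85e-05) in the authors' deposited table, at chr11:87790302-87791300, 2483 bp upstream of the start. Elane, Prtn3, Ctsg, Lyz1, Lyz2, S100a8, S100a9 and Ms4a3, which encodes a membrane protein but was grouped with these, were paired with no listed region. A region inside Elane, the neutrophil elastase gene, was paired with its neighbour Cfd. This region, chr10:79886502-79887600, was more accessible in Tie2 KO than in Tie2 WT, with a log2 fold change of 1.71 (adjusted p = 0.000569) in the authors' deposited table.

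Of 14 surface receptors and markers, Cd14, Cx3cr1 and Itgam had regions. In Tie2 KO against Vav KO, 2 were higher (11.1% of all genes) and 1 lower (6.35%). In Vav KO against Tie2 WT, 1 was lower (2.59%). Cd14, the co-receptor for bacterial lipopolysaccharide, had the largest fold changes of the 13 regions, with Vav KO the less accessible group in both comparisons. Just upstream of Cd14, accessibility was lower in Vav KO than in Tie2 WT, with a log2 fold change of -2.56 (adjusted p = 0.00052) in the authors' deposited table. It was higher in Tie2 KO than in Vav KO, at 2.11 (adjusted p = 0.000893) in the authors' deposited table. The regions, chr18:36727502-36728500 and chr18:36727002-36728000, share 499 bases. Both are large for their lists, as 95.9% and 93.0% of the regions there had smaller fold changes. Tie2 KO had no listed region at Cd14 against Tie2 WT.

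At Csf1r and Cd14 the values against Tie2 WT and against Tie2 KO are not independent of each other, because both use the 3 Vav KO samples. Tie2 WT comes from the other Cre line, so the effect of the knockout and that of the line cannot be told apart in Vav KO against Tie2 WT. Tie2 KO against Vav KO is likewise a comparison across Cre lines.

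Cx3cr1, the fractalkine receptor that marks macrophage precursors and microglia, was higher in Tie2 KO than in Vav KO, with a log2 fold change of 1.02 (adjusted p = 0.000543) in the authors' deposited table. Its region, chr9:120068802-120069800, lay 505 bp upstream. Itgam encodes the integrin chain CD11b of monocytes, macrophages and granulocytes. It was lower in Tie2 KO than in Vav KO, at -0.92 (adjusted p = 9.75e-05) in the authors' deposited table, at chr7:128057202-128058200, the most distant of the regions at 4439 bp upstream. Its neighbour on the chromosome, Itgax, which encodes the integrin chain CD11c, went the other way in the same comparison, at 1.29 (adjusted p = 0.00075) in the authors' deposited table. Itgb2, the partner chain of both, had no listed region, nor had Fcgr1, Fcgr2b, Fcgr3, Ly6c2, Adgre1, Cd68, Clec7a, Mrc1, Sirpa and Ptprc.

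Tyrobp encodes DAP12, the adaptor through which phagocyte receptors such as TREM2 signal, and had regions of opposite direction in different comparisons. Over its gene start accessibility was lower in Tie2 KO than in Tie2 WT, with a log2 fold change of -0.58 (adjusted p = 2.75e-05) in the authors' deposited table, at chr7:30412102-30413900. This is the smallest size the lists hold. A second region, chr7:30411002-30412000, 1787 bp upstream, was higher in Tie2 KO than in Vav KO, at 0.84 (adjusted p = 0.00078) in the authors' deposited table. The regions do not overlap and lie 101 bp apart. A further region, chr7:30416002-30417200, lay inside Tyrobp and was paired with Nfkbid; it was higher in Tie2 KO than in Vav KO, at 2.04 (adjusted p = 7.03e-05) in the authors' deposited table. The other adaptor of the set, Fcer1g, had no listed region.

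Laptm5, a lysosomal membrane protein of blood cells, was lower in Tie2 KO than in Vav KO, with a log2 fold change of -0.58 (adjusted p = 0.000156) in the authors' deposited table. This value is also at the lower limit of the lists, at chr4:130910902-130911900, 1433 bp upstream. The actin-binding gene Coro1a had no listed region, and neither had the 3 genes of the NADPH oxidase, Ncf1, Ncf4 and Cybb.

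**Figure D3:**
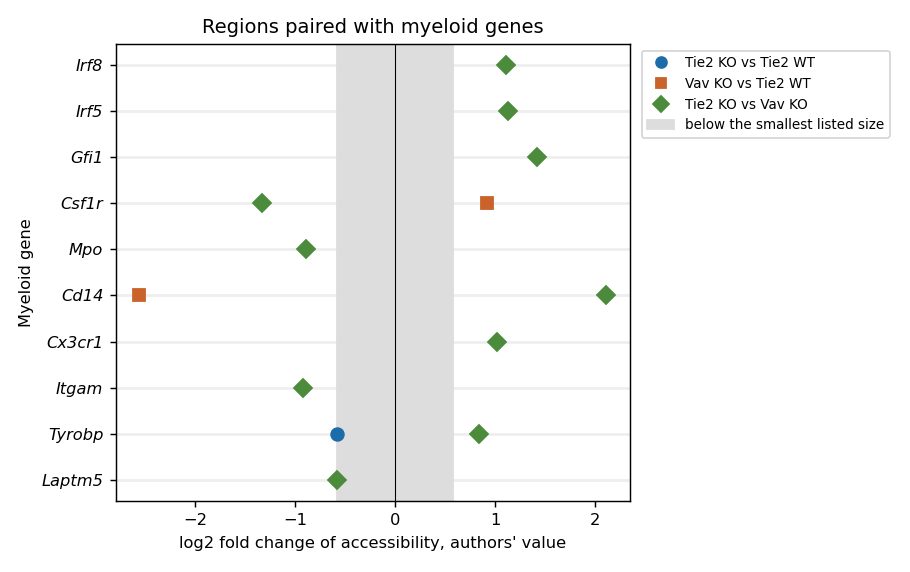
Log2 fold change of each region paired with a myeloid gene, from the authors' table, by gene and comparison; the grey band covers sizes below 0.58, the smallest listed. Values run from -2.56 to 2.11, both at Cd14, and Csf1r, Cd14 and Tyrobp have points on both sides of 0. At Csf1r and Cd14 the sign changes because Vav KO is named first against Tie2 WT and last against Tie2 KO.

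In the direct comparison, the 6 higher regions had log2 fold changes of 0.84 to 2.11 in the authors' deposited table, and 5 of them reached 1. The 4 lower regions lay between -1.33 and -0.58 in the authors' deposited table, and 1 of them, at Csf1r, reached a size of 1. Medians were 1.12 for the higher regions of myeloid genes, against 1.16 for all higher regions of that list, and -0.91 for the lower ones, against -1.12. The lists of knockouts against Tie2 WT had too few myeloid regions for a median.

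Promoter windows were available in RefSeq for 32 of the 43 genes, 39 windows in all, and for 7 of the 10 genes with a region in a list. The promoters of Mpo, Itgam and Laptm5 are shown as those of genes lower in Tie2 KO than in Vav KO, although each called region lies farther upstream than the window. They are the plus-strand windows chr11:87793534-87793833, chr7:128062390-128062689 and chr4:130913066-130913365 of GRCm38.p6. The capitals mark GAGGAA or its reverse complement TTCCTC, the core of many PU.1 sites, which includes the GGAA shared by other ETS factors.
Mpo: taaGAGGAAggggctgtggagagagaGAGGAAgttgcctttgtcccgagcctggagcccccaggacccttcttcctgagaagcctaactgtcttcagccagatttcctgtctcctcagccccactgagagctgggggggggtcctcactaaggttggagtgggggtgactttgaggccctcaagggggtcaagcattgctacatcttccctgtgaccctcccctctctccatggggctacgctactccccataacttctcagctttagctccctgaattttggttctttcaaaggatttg
Itgam: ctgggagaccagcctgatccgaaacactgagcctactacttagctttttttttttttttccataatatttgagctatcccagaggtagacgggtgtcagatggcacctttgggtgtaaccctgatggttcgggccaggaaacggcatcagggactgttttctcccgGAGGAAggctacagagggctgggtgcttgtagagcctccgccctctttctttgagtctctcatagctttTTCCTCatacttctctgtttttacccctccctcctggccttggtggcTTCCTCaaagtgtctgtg
Laptm5: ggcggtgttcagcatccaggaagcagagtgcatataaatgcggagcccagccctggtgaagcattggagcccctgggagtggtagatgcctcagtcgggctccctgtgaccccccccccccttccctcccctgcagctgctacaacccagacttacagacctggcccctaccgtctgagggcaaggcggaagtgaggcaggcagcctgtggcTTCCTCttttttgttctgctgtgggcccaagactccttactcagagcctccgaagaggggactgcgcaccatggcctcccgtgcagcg
The Mpo window held 2 such matches, the Itgam window 3 and the Laptm5 window 1. In the 6 windows of Irf8, Irf5, Gfi1 and Cx3cr1, which had higher regions in that comparison, there was no match. Only the Irf8 window shown above shares bases (93) with its called region, so these windows too lie mostly outside the regions. Of 25 genes with a window but no region in that comparison, 16 held the core. Cd14, Tyrobp and Csf1r, which also had regions, are not among the windows used here. Of all 32851 windows, 28.3% held the core, and of the 39 windows of myeloid genes, 56.4% did. On either strand, the C/EBP motif TTGCNNAA was in 17.9% of the myeloid windows, against 10.8% of all, and the GATA motif AGATAA in 7.69%, against 11.2%. Some of these windows belong to the same gene and overlap, and a match is a run of letters, not a bound site.

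The number of CG pairs, which PRC2-bound promoters are known to be rich in, was counted in the same windows. The Irf8 windows held 38 and 8 pairs, the Irf5 window 35, the Gfi1 windows 16 and 10, and the Cx3cr1 window 5. The windows of the genes with lower regions held 2 for Mpo, 6 for Itgam and 9 for Laptm5. Over all 39 windows the number ran from 0 to 50, the most being at Cebpb, which was paired with no listed region. With 7 genes the ranges overlap and no test was made.

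**Figure D4:**
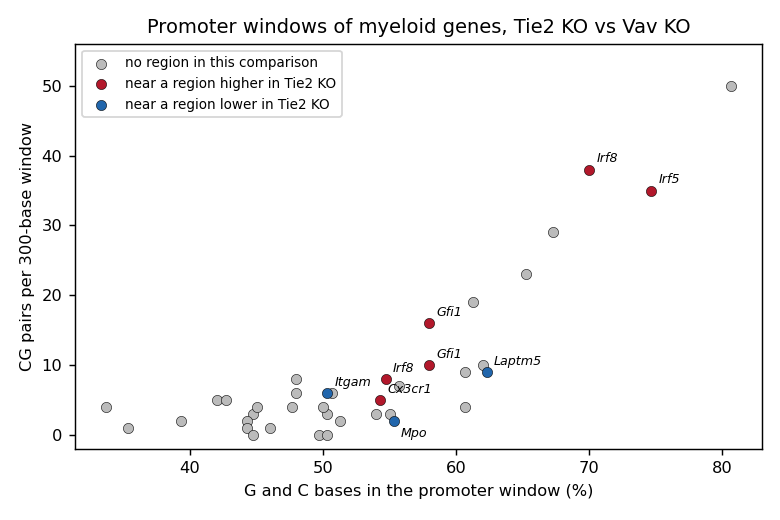
Number of CG pairs against the percentage of G and C bases in each 300-base promoter window of the myeloid genes; each point is a window, red for genes near a region higher and blue for genes near a region lower in Tie2 KO than in Vav KO, grey for the rest. The 6 red windows hold 5 to 38 pairs, with 38 and 35 in windows of Irf8 and Irf5. The 3 blue windows hold 2 to 9, so the ranges overlap.

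Another 180 genes of myeloid cells, grouped by role, were counted in the same way. In Tie2 KO against Tie2 WT, 7 lay near a higher region (3.89%, against 11.5% of all genes) and 11 near a lower one (6.11%, against 2.51%). For Vav KO against Tie2 WT the numbers were 10 higher (5.56%, against 5.29%) and 4 lower (2.22%, against 2.59%). For Tie2 KO against Vav KO they were 14 higher (7.78%, against 11.1%) and 19 lower (10.6%, against 6.35%). Nfil3, in Tie2 KO against Tie2 WT, and Dock8, in Tie2 KO against Vav KO, lay near regions of both directions.

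Of 30 other regulator genes, 6 were higher and 1 lower in Tie2 KO against Tie2 WT, and 6 were higher and 0 lower against Vav KO, with the same Tie2 KO samples in both. Against Tie2 WT, Tfeb, a regulator of lysosome genes, had a log2 fold change of 1.1, Klf4, a monocyte factor, 1.02, and Id2, an inhibitor of helix-loop-helix factors, 0.76 in the authors' deposited table. Nfil3 had values of -0.76 and 0.67 at separate regions in the authors' deposited table. Against Vav KO, Bcl6 stood at 2.53, Klf4 at 0.9 and Id2 at 0.8 in the authors' deposited table. Vav KO against Tie2 WT had 1 such gene, Nfil3, at 0.66 in the authors' deposited table. The higher genes were 20.0% of these regulators in each Tie2 KO comparison, against 11.5% and 11.1% of all genes, and no test was made. The lower ones were 3.33% against Tie2 WT (2.51% of all genes) and 0% against Vav KO (6.35%). In Vav KO 3.33% were higher than in Tie2 WT (5.29% of all genes) and 0% lower (2.59%).

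Of 58 genes listed as phagocyte surface genes, 11 lay near a lower region in Tie2 KO against Vav KO (19.0%, against 6.35% of all genes). Near a higher one lay 2 (3.45%, against 11.1%). Not all of the 11 are particular to phagocytes, as Itgb1, for example, is made by most cell types. Among the 11, Clec4n, Clec4d and Clec4e lie close together, with regions between chr6:123227202 and chr6:123294100, so they are not separate places in the genome. The largest values were -1.67 at Clec4d, a C-type lectin receptor, -1.59 at Itgb1, an integrin chain, 1.42 at Fcgrt, an Fc receptor that recycles IgG, and -1.39 at Cd74, the invariant chain of MHC class II, in the authors' deposited table. Against Tie2 WT, Tie2 KO had 3 lower genes, Clec4e at -1.14, Cd48 at -0.89 and Tlr13 at -0.81 in the authors' deposited table, and 0 higher. The lower genes were 5.17% of the list, against 2.51% of all genes, and 11.5% of all genes were higher. Vav KO against Tie2 WT had Axl, a receptor for dying cells, at 2.09 and lower values at Cd52, of -1.05 and -0.58, and at Cd48, of -0.84, in the authors' deposited table. As shares, 1.72% were higher (5.29% of all genes) and 3.45% lower (2.59%) in Vav KO.

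Among signalling and oxidase genes of phagocytes, 5 of 34 were higher in Vav KO than in Tie2 WT and 0 lower, led in the authors' deposited table by Alox5ap, which serves leukotriene synthesis, at 1.96, Was, a regulator of actin, at 1.69, Btk, a tyrosine kinase, at 1.11, and Pik3r5 at 0.91. The fifth was Vav1, whose regulatory sequence drives the Cre of the Vav KO embryos, at 0.81 in the authors' deposited table. What the transgene adds to the Vav1 values, here and against Tie2 KO, was not tested, and Vav1 is counted in the shares below. In Tie2 KO 4 were lower than in Tie2 WT and 0 higher: Arhgdib at -0.86, Nckap1l at -0.81, Lcp2 at -0.79 and Plcg2 at -0.58 in the authors' deposited table. Against Vav KO, Tie2 KO had 7 lower and 2 higher genes, with Dock8 at 1.55 and -0.79, Arhgap25 at -1.18 and Alox5ap at -1.17 in the authors' deposited table. This comparison is the authors' test between the knockouts, which also differ in Cre line and transgene. In it Alox5ap (adjusted p = 0.000201), Vav1, at -0.9 (adjusted p = 3.22e-05), and Lcp2, at -0.87 (adjusted p = 2.02e-05), were called lower in Tie2 KO in the authors' deposited table. As shares of the list, 14.7% were higher in Vav KO than in Tie2 WT (5.29% of all genes) and 11.8% lower in Tie2 KO than in Tie2 WT (2.51%). Against Vav KO, 5.88% were higher (11.1%) and 20.6% lower (6.35%) in Tie2 KO.

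Of 28 other cytokine and receptor genes, Tie2 KO had 0 higher (against 11.5% of all genes) and 2 lower (7.14%, against 2.51%) than Tie2 WT, Ccr1 at -1.33 and C5ar1 at -0.66 in the authors' deposited table. In Vav KO 7.14% were higher than in Tie2 WT (5.29% of all genes) and 3.57% lower (2.59%). Against Vav KO, 10.7% were higher (11.1%) and 3.57% lower (6.35%) in Tie2 KO. Vav KO had Cxcr4 at 1.8 and Csf3 at 1.32 above Tie2 WT, and Il3, a growth factor of early myeloid cells, at -1.25 in the authors' deposited table. Against Vav KO, Tie2 KO stood at 2.56 for Il3, 1.46 for Il34, -1.4 for Il13ra1 and 0.62 for Cxcr4 in the authors' deposited table. The Il3 regions of these comparisons do not overlap, lying 3922 bp upstream in Vav KO against Tie2 WT and 2022 bp upstream here. Nor do those of Cxcr4, 3102 bp upstream in Vav KO against Tie2 WT and over the gene start here. The Csf3 region lay 4912 bp upstream. Of 30 other granule and secreted proteins, 1 gene (3.33%) was called in each direction against Tie2 WT, in Tie2 KO (11.5% of all genes higher and 2.51% lower) and in Vav KO (5.29% and 2.59%). Tie2 KO against Vav KO had 1 higher (3.33%, against 11.1%) and 0 lower (6.35%). Tie2 KO had Cfd at 1.71 and Srgn at -1.14 against Tie2 WT in the authors' deposited table. Hdc, the histamine-forming enzyme also made by mast cells and basophils, was at -1.29 in Vav KO against Tie2 WT and at 0.92 in Tie2 KO against Vav KO in the authors' deposited table. Mmp9 was at 0.66 in Vav KO against Tie2 WT in the authors' deposited table.

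**Figure D5:**
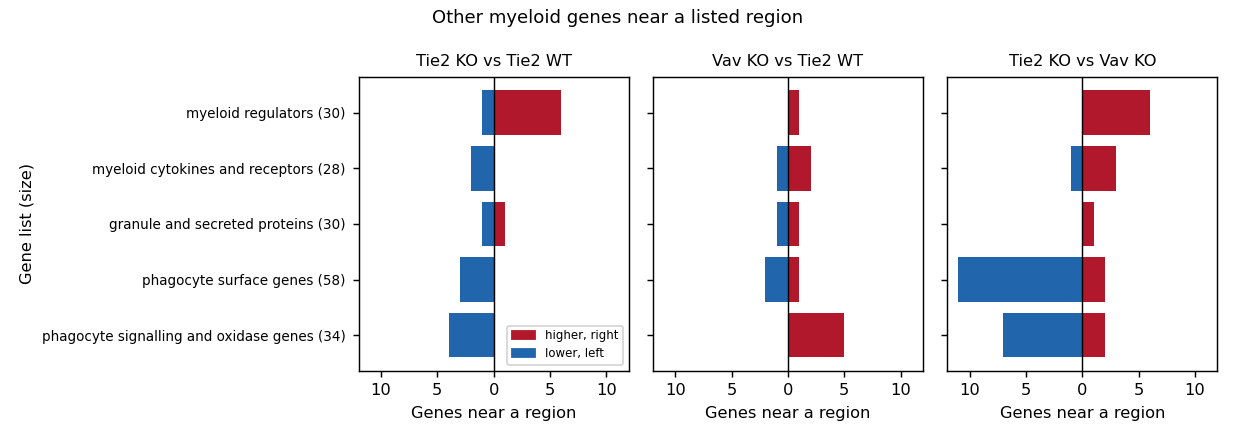
Number of genes of 5 other myeloid lists near a higher (red, to the right) or lower (blue, to the left) region in each comparison, with the size of each list in parentheses. The longest bar is that of the surface genes in Tie2 KO against Vav KO, with 11 genes lower and 2 higher.

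Markers of other cells that the sort could hold were counted beside these, 16 for each type. In Tie2 KO against Tie2 WT, 6 endothelial markers were higher (37.5%, against 11.5% of all genes) and 1 lower (6.25%, against 2.51%). In Tie2 KO against Vav KO, 6 were higher (37.5%, against 11.1%) and 0 lower (against 6.35%). In Vav KO against Tie2 WT 0 endothelial markers were called (5.29% of all genes higher and 2.59% lower). One of the 6 in each Tie2 KO comparison was Tek, which encodes Tie2 and whose regulatory sequence drives the Cre of those embryos, at 2.9 against Tie2 WT and 2.92 against Vav KO in the authors' deposited table, and what the transgene adds to these values was not tested. Megakaryocyte and mast cell markers had 5 lower (31.2%, against 2.51%) and 0 higher (against 11.5%) in Tie2 KO against Tie2 WT. They had 5 lower (31.2%, against 6.35%) and 1 higher (6.25%, against 11.1%) in Tie2 KO against Vav KO, and 2 lower (12.5%, against 2.59%) and 0 higher (against 5.29%) in Vav KO against Tie2 WT. Lymphoid markers had 5 higher (31.2%, against 11.5%) and 1 lower (6.25%, against 2.51%) in Tie2 KO against Tie2 WT. Most of these 5 genes encode transcription factors, and whether the sort held lymphoid cells was not tested. The lymphoid markers had 4 higher (25.0%, against 11.1%) and 2 lower (12.5%, against 6.35%) in Tie2 KO against Vav KO. In Vav KO against Tie2 WT 0 of them were called (5.29% of all genes higher and 2.59% lower). Erythroid markers had 3 higher (18.8%, against 5.29%) and 0 lower (against 2.59%) in Vav KO against Tie2 WT, and 2 higher (12.5%, against 11.5%) and 0 lower (against 2.51%) in Tie2 KO against Tie2 WT. In Tie2 KO against Vav KO, 1 was higher (6.25%, against 11.1%) and 2 lower (12.5%, against 6.35%). The part of these other cells in the myeloid values was not tested.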

How the data were processed

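The 14 samples form 4 groups, of which Tie2 KO, Vav KO and Tie2 WT (11 samples) enter the 3 comparisons. Per the submitters' processing notes, the build was mm10 and the tools included HOMER 4.10, MACS2 2.1.2, SAMtools 1.3.1, Picard, Bowtie2 and FastQC, whose roles are not stated. Any shift of reads for Tn5, the treatment of duplicates, the library scaling and the test are likewise not given in the sources used here. TKO, VKO and TWT, which name the lists, were taken to mean Tie2 KO, Vav KO and Tie2 WT. The authors deposited, per the file headers, the log2 fold change of every region, its adjusted p-value, and other measures (width and distance in bp). Edges lie on a grid of 100 bp.

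Myeloid genes were matched by symbol, and all 43 are in a table of RefSeq genes of GRCm38.p6, which gave the protein-coding background. Of 10679 lines, 10669 matched it by identifier. Every myeloid gene of the 43 with a region is named. Of each other myeloid list, the 4 largest absolute fold changes in each comparison are named, except for genes not reported here. Other genes are named after a look at their values. The 43 genes, the lists and the motifs were chosen with earlier results of these data known. Python 3.11.15, pandas 2.3.3 and matplotlib 3.10.9 were used, and counting was tested on simulated data. Alternatives changed the fold change, adjusted p, place, distance, pairing and matching.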

Additional observations from a re-analysis of the deposited data

How the results depend on the processing

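Counts of myeloid genes were the same when regions had an adjusted p of at most 0.01, when regions paired with more than 1 gene were left out, and when genes were matched by identifier, in all 6 lists. The fold change of each gene was the same with the region nearest the start, since none had 2 regions in a list. With an absolute log2 fold change of at least 1, 0 genes were higher in Vav KO against Tie2 WT (3.79% of all genes). By the same limit 0 were lower in Tie2 KO against Tie2 WT (0.808%) and 1 lower in Tie2 KO against Vav KO (3.78%). The regions left out are smaller. Counting only regions that cover the gene start left 0 higher (5.42% of all genes) and 1 lower (0.667%) in Tie2 KO against Vav KO. It left 0 lower in Vav KO against Tie2 WT (0.411% of all genes). Within 2000 bp of the start, 2 were lower in Tie2 KO against Vav KO (3.24% of all genes). Adding regions inside a gene's span, a choice made after seeing the data, gave 2 higher and 2 lower in Tie2 KO against Tie2 WT and 5 lower in Tie2 KO against Vav KO. The share of all genes was not counted in this way. No paired analysis was possible because the lists hold no value per sample, and for the same reason no replicate could be left out. Depth is unknown, so what it limits could not be judged.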
